A study of Mus musculus with 12 samples.

Results

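The enzymes that turn citrate into activated fatty acids were examined through 5 genes in mammary tumors of MMTV-Neu mice, namely *Acly*, *Acaca*, *Acacb*, *Fasn* and *Acsl3*. They were chosen by name, with earlier results of these data known. All 5 of 5 were among the 1589 genes listed for V-125 against control, while 2 of 5, *Fasn* and *Acsl3*, were among the 1784 genes listed for bexarotene. Of all genes tested, 8.95% of 15310 for V-125 and 9.36% of 18687 for bexarotene were listed with an adjusted p-value below 1. V-125 and bexarotene are agonists of the retinoid X receptor (RXR), a nuclear receptor that pairs with other nuclear receptors such as LXR and PPAR. In the 4 control tumors these genes had mean levels between 1.78 and 44.7 FPKM, and all 5 had a higher mean in the 4 V-125-treated tumors, by 1.64-fold for *Acly* to 2.63-fold for *Acacb*.

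RNA was sequenced from 12 tumors of female MMTV-Neu mice, each from a different mouse, with 4 tumors per group. The mice carry the Neu (HER2) transgene under the MMTV promoter, which is active in mammary epithelium, and bore palpable mammary tumors when treatment began. They were fed powdered chow that held, per kg of diet, 100 mg of V-125, 100 mg of bexarotene or the vehicle alone (control), for 10 days. The vehicle of ethanol and coconut oil was in the diet of all 3 groups, and no age of the mice is given in the sources used here. RNA came from pieces of whole frozen tumor, so a change in the number of cells of a type and a change in RNA per cell cannot be told apart. The read depth on genes ranged from 15571690 to 22574865 per tumor in the V-125 and control groups.

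In this pathway, ATP citrate lyase (*Acly*) splits citrate exported from mitochondria into acetyl-CoA and oxaloacetate in the cytosol. Acetyl-CoA carboxylases add carbon dioxide to acetyl-CoA to give malonyl-CoA, which is the building block of fatty acids when made by ACC1 (*Acaca*) and which inhibits mitochondrial uptake of fatty acids when made by ACC2 (*Acacb*) at the mitochondrial outer membrane. Fatty acid synthase (*Fasn*) joins these units into palmitate with NADPH, and *Acsl3* encodes a long-chain acyl-CoA synthetase of the endoplasmic reticulum and lipid droplets that activates fatty acids for use in lipids. *Acly*, *Acaca* and *Fasn* are textbook targets of the transcription factors SREBP-1c and, through it, of LXR with its partner RXR, and the pathway is active in liver, adipose tissue and the lactating mammary gland.

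On GRCm38, *Acly* (ENSMUSG00000020917) lies on chromosome 11 from 100476353 to 100528000 on the minus strand, *Fasn* (ENSMUSG00000025153) on chromosome 11 from 120805846 to 120824547 on the minus strand, and *Acaca* (ENSMUSG00000020532) on chromosome 11 from 84129672 to 84401651 on the plus strand. *Acacb* (ENSMUSG00000042010) lies on chromosome 5 from 114146535 to 114250761 and *Acsl3* (ENSMUSG00000032883) on chromosome 1 from 78657825 to 78707743, both on the plus strand. The 250 bases before the gene start are shown for the 3 genes whose RefSeq start (GRCm38.p6) is the start given in the deposited table, because genes of this pathway are known for control through their proximal promoters. The windows are chr11:100528001-100528250 (minus strand) for *Acly*, chr11:120824548-120824797 (minus strand) for *Fasn* and chr1:78657575-78657824 (plus strand) for *Acsl3*, each written 5′ to 3′ along the gene, with matches to the motifs searched in capitals.
Acly: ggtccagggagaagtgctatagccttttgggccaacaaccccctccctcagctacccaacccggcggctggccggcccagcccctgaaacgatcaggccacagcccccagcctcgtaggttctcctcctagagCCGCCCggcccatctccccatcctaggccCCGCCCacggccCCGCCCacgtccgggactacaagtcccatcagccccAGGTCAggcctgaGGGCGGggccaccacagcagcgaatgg
Fasn: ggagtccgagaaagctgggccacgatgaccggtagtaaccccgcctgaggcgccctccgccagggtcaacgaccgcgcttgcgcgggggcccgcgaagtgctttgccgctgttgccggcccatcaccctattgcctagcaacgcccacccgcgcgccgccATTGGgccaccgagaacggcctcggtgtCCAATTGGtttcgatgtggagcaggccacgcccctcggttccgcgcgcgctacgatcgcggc
Acsl3: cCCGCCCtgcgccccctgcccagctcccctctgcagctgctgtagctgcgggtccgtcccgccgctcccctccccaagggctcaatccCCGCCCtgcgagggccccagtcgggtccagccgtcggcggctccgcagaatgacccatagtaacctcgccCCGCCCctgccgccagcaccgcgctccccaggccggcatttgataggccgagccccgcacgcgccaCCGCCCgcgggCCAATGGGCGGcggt

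These windows were searched on both strands for the sterol regulatory element TCACNCCAC, the E-box CACGTG, the CCAAT box, the GC box GGGCGG and the nuclear receptor half-site AGGTCA, also as direct repeats with 1 base (DR1) or 4 bases (DR4) between half-sites. The *Acly* window held 4 GC boxes and 1 half-site, whose letters end 35 bases before the start. The *Fasn* window held 3 CCAAT boxes, of which those at 62 to 58 bases (plus strand) and 59 to 55 bases (minus strand) before the start overlap. The *Acsl3* window held 5 GC boxes and 1 CCAAT box, and that CCAAT box directly adjoins the GC box nearest to the start. Among all 32851 windows of this length in the RefSeq table, 32.7% held a GC box, 33.9% a CCAAT box and 14.0% a half-site, so such matches are common. The sterol regulatory element (in 1.05% of all windows), the E-box (6.02%), DR1 (0.0335%) and DR4 (0.0152%) had no match in any of the 5 genes' windows. Only exact matches to these letters within the windows were searched, so this does not show that such sites are absent from the genes. For *Acaca* and *Acacb* the RefSeq window lies 65766 and 18983 bases inside the gene as the table gives it, so its sequence is not shown.

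To ask whether these enzymes differ with V-125, the normalized counts of each tumor (read counts divided by 1 size factor per tumor) were compared with those of the control tumors. *Fasn*, the palmitate synthase, had 12988, 20694, 19041 and 21867 normalized counts in V-125-treated tumors 1 to 4 and 11193, 6350, 8279 and 9473 in control tumors 1 to 4. Its mean was 2.11-fold higher with V-125 (18648 ± 3947 against 8824 ± 2037, SD, n = 4 each). The groups did not overlap, but V-125 replicate 1 was only 1.16-fold above control replicate 1.

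*Acly*, which supplies the acetyl-CoA, had 5151, 7101, 6266 and 9331 normalized counts in V-125-treated tumors 1 to 4 and 4956, 4064, 3852 and 4092 in control tumors 1 to 4. The means were 6962 ± 1770 and 4241 ± 489 (SD, n = 4 each), the smallest fold difference of the 5 genes. Again the groups were separated by V-125 replicate 1 and control replicate 1, here by a factor of 1.04.

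The carboxylases make the malonyl-CoA. *Acaca* had 2757, 3551, 3650 and 3660 normalized counts in V-125-treated tumors 1 to 4 and 2042, 1383, 1144 and 2292 in control tumors 1 to 4, with means of 3404 ± 434 and 1715 ± 541 (SD, n = 4 each, 1.99-fold). *Acacb* had 1131, 539, 777 and 800.5 with V-125 and 246, 375, 276 and 341 in controls, with means of 812 ± 244 and 309 ± 59.0 (SD, n = 4 each, 2.63-fold). Neither gene's groups overlapped, and the lowest V-125-treated tumor exceeded the highest control tumor by 1.20-fold for *Acaca* and 1.44-fold for *Acacb*.

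*Acsl3*, the activating enzyme, had 919.7, 986, 1559 and 940.1 normalized counts in V-125-treated tumors 1 to 4 and 429, 437, 353 and 534 in control tumors 1 to 4. Replicates 1, 2 and 4 of the V-125 group lay close together, with replicate 3 above them. The gap between the groups was the widest of the 5 genes, with the lowest V-125-treated tumor 1.72-fold above the highest control tumor, at a 2.51-fold ratio of means.

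**Figure D1:**
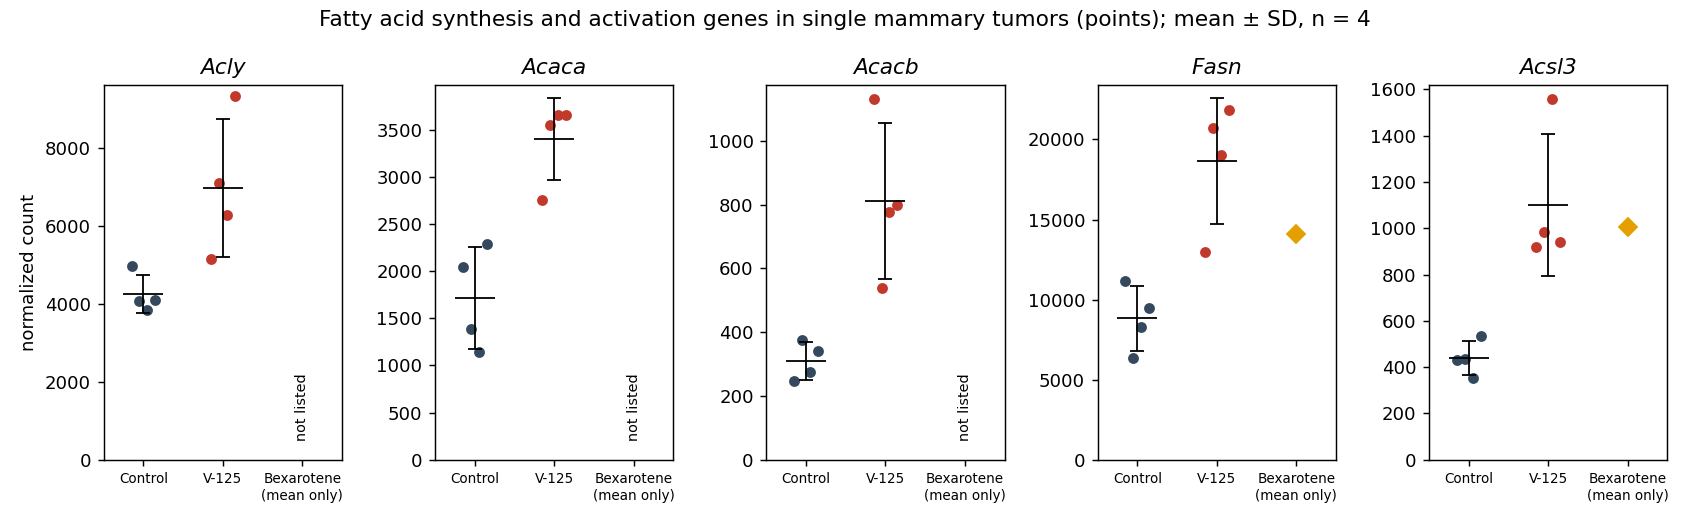
Normalized counts (linear axes from 0) of *Acly*, *Acaca*, *Acacb*, *Fasn* and *Acsl3* in single control and V-125-treated tumors (points), with mean ± SD (n = 4), and the authors' bexarotene mean (diamond) where the gene is listed. For each gene all V-125-treated tumors lie above all control tumors, most narrowly for *Acly*, where 5151 stands against 4956.

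For all 5 genes, then, the V-125-treated and control tumors did not overlap (two-sided exact permutation test over 70 assignments, p = 0.0286 for each gene, the smallest that 4 tumors against 4 allow). Among the 1589 listed genes 21.1% were higher with V-125 without overlap, and 51.4% had a higher mean with V-125. In the authors' own test every listed gene had p under 0.05 before adjustment, so a listed gene had already been selected for its difference, and 8.95% of the 15310 genes that the authors had tested were listed with an adjusted p-value below 1.

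With edgeR's quasi-likelihood test on the read counts of the listed genes, the log2 fold changes (V-125 against control) were 1.39 for *Acacb* (SE 0.25), 1.33 for *Acsl3* (SE 0.22), 1.08 for *Fasn* (SE 0.23), 0.99 for *Acaca* (SE 0.23) and 0.72 for *Acly* (SE 0.20), where the SE was obtained from the F statistic. The median of the 5 was 1.08, beside a median of 0.36 over the 1333 genes fitted. That 0.36 mixes genes of both directions, 702 of them higher, so it is not a typical size of change. Ranked by log2 fold change from the highest, *Acacb* was 118 of 1333, *Acsl3* 133, *Fasn* 210, *Acaca* 249 and *Acly* 398. None of the 5 passed an edgeR adjusted p-value of 0.05 when the Benjamini-Hochberg adjustment covered all 15310 tests, with adjusted p-values of 0.443 for *Acsl3*, 0.456 for *Acacb*, *Fasn* and *Acaca* and 0.576 for *Acly*. The background was 0%, since no gene fitted passed this threshold as higher, while 489 were higher and 464 lower at an unadjusted edgeR p-value under 0.05, all 5 genes among the former (background 36.7%).

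The call changed with the adjustment and the tool. When edgeR's p-values were adjusted over the 1333 genes fitted, 4 of 5 passed (*Acsl3* at 0.0386, *Acacb*, *Fasn* and *Acaca* at 0.0397) and *Acly* did not (0.0502), against 5.10% of all genes fitted that passed as higher. That count was 0 without V-125 replicate 2, V-125 replicate 4, control replicate 2 or control replicate 4, each left out alone. In those fits, in this order, 0 of 1364, 0 of 1374, 0 of 1361 and 1 of 1361 genes fitted passed as higher. The loss of calls was therefore not particular to the 5 genes. limma-voom called 5 of 5 with that adjustment (background 6.68%) and none over all tests (background 0%). DESeq2 with adjustment over all tests also called 4 of 5, against 5.33% of the genes fitted, with adjusted p-values of 9.85e-05 for *Acsl3*, 0.000376 for *Acacb*, 0.00454 for *Fasn* and 0.0199 for *Acaca*, and 0.0851 for *Acly*. Over the genes fitted alone DESeq2 called 5 of 5 (background 38.8%). Ranked by unadjusted edgeR p-value, *Acsl3* was 1 of 1333, *Acacb* 8, *Fasn* 20, *Acaca* 51 and *Acly* 123. All these fits estimate the variance from selected genes only. Adjustment over the genes fitted alone is also too lenient, because those genes had been selected for their difference in the same tumors.

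**Figure D2:**
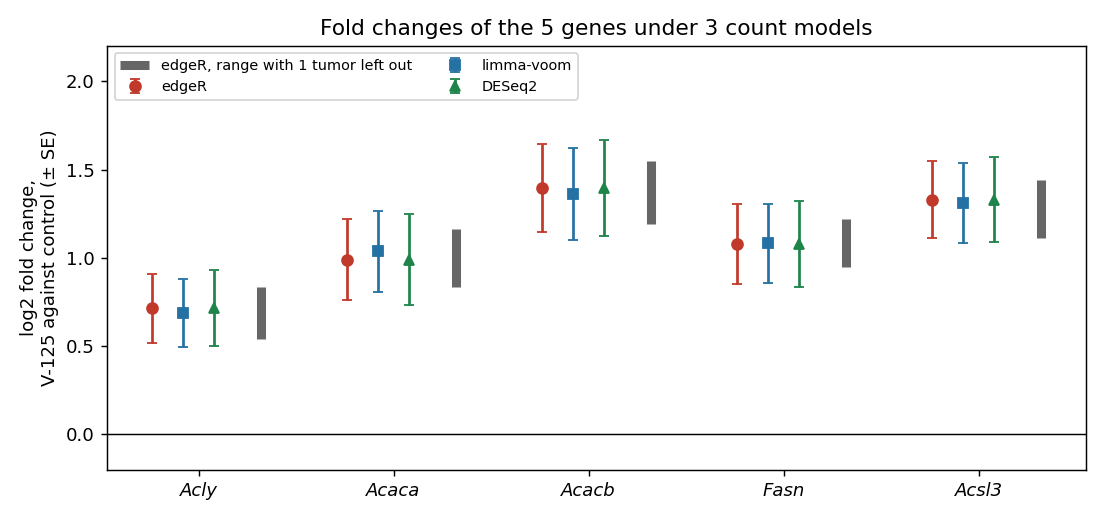
Log2 fold changes (± SE) of V-125 against control for the 5 genes from edgeR, limma-voom and DESeq2, with gray bars for the range of edgeR values when each of the 8 tumors was left out in turn. The order from *Acly* (0.72) to *Acacb* (1.39) and the values hardly differ between models, and every gray bar stays above 0, the lowest value being 0.54 for *Acly*. Groups without overlap keep their direction when 1 tumor is left out, so the bars show only how the size varies.

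Levels of different genes were compared per length, as FPKM. The deposited gene lengths were 17074 bases for *Acaca*, 10947 for *Fasn*, 9632 for *Acacb*, 5279 for *Acly* and 4357 for *Acsl3*. The order of the genes rests on these lengths, which were not checked against the transcripts expressed. In control tumors *Fasn* (44.7 ± 10.4 FPKM, SD, n = 4) and *Acly* (44.6 ± 5.26) were the most abundant and did not differ beyond their spread. *Acsl3* (5.58 ± 0.934 FPKM) and *Acaca* (5.57 ± 1.76 FPKM) came next and did not differ beyond their spread either, and *Acacb* was lowest at 1.78 ± 0.336 FPKM. The order of the means was the same with V-125, at 94.3 ± 19.6 FPKM for *Fasn*, 73.1 ± 18.4 for *Acly*, 14.0 ± 3.85 for *Acsl3*, 11.0 ± 1.35 for *Acaca* and 4.68 ± 1.44 for *Acacb* (SD, n = 4 each). There the tumors of *Fasn* (66.4 to 111) and *Acly* (54.6 to 97.9) still overlapped, as did those of *Acsl3* (11.8 to 19.8) and *Acaca* (9.04 to 11.9), whereas *Acacb* (3.08 to 6.57) stayed below all values of *Acaca*.

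**Figure D3:**
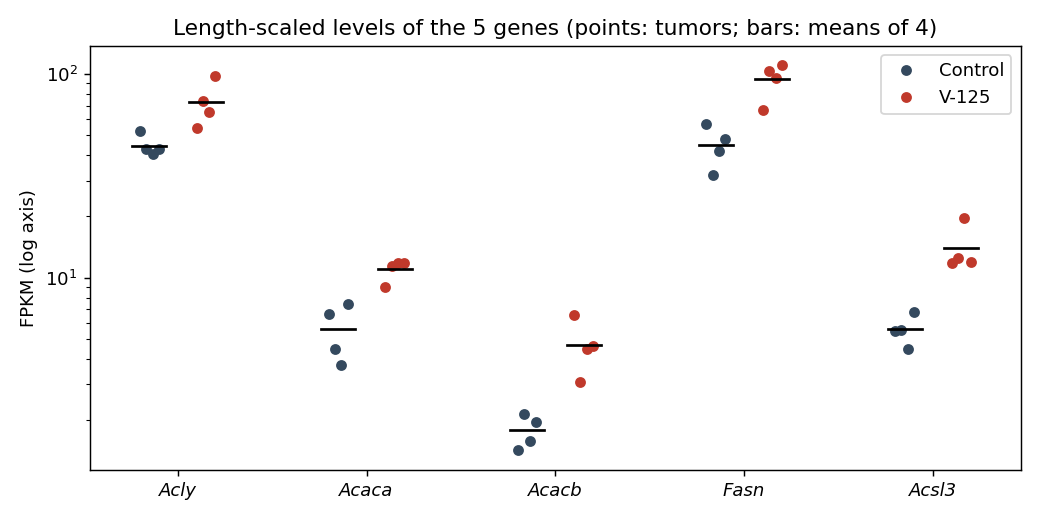
FPKM (log axis) of the 5 genes in single tumors (points; 4 control and 4 V-125-treated) with group means (bars). *Fasn* and *Acly* lie well above the rest, with control means of 44.7 and 44.6 FPKM, and *Acacb* is lowest in both groups.

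Since the 5 fold changes were unequal, the balance between the enzymes was compared as the log2 ratio of FPKM in each tumor for all 10 pairs of genes, a comparison chosen after the data had been seen. The ratio of *Acly* to *Fasn* was 0.822, 0.712, 0.682 and 0.885 in V-125-treated tumors 1 to 4 and 0.918, 1.33, 0.965 and 0.896 in control tumors 1 to 4. All V-125-treated tumors thus had less *Acly* per *Fasn* than any control tumor, by a log2 difference of −0.39 (two-sided exact permutation test, p = 0.0286, Benjamini-Hochberg adjusted over 10 pairs 0.286), which did not pass the adjustment. The other 9 pairs overlapped between the groups, with exact permutation p-values between 0.114 and 0.914. For the carboxylases the log2 ratio of *Acaca* to *Acacb* was 1.28 ± 0.599 with V-125 and 1.61 ± 0.558 in controls (SD, n = 4 each), a difference of −0.33 (exact permutation p = 0.514).

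Within a group the 5 genes did not vary together in every tumor. V-125 replicate 1 had the lowest value of its group for *Acly*, *Acaca*, *Fasn* and *Acsl3* and the highest for *Acacb*. In the control group, replicate 1 was highest for *Fasn* and *Acly* and lowest for *Acacb*, and replicate 2 was lowest for *Fasn* and highest for *Acacb*. Across the 8 tumors the deviations from the group means of log2(normalized count + 1) had a Pearson correlation of 0.76 for *Acly* with *Fasn* and 0.70 for *Acaca* with *Fasn*, but −0.76 for *Acacb* with *Fasn* and 0.052 for *Acacb* with *Acsl3*. These coefficients describe 8 tumors that share size factors across genes, and no p-value is given for them. The spread of single genes also differed by group, with a coefficient of variation for *Acaca* of 12.8% with V-125 and 31.5% in controls and for *Acly* of 25.4% and 11.5%.

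**Figure D4:**
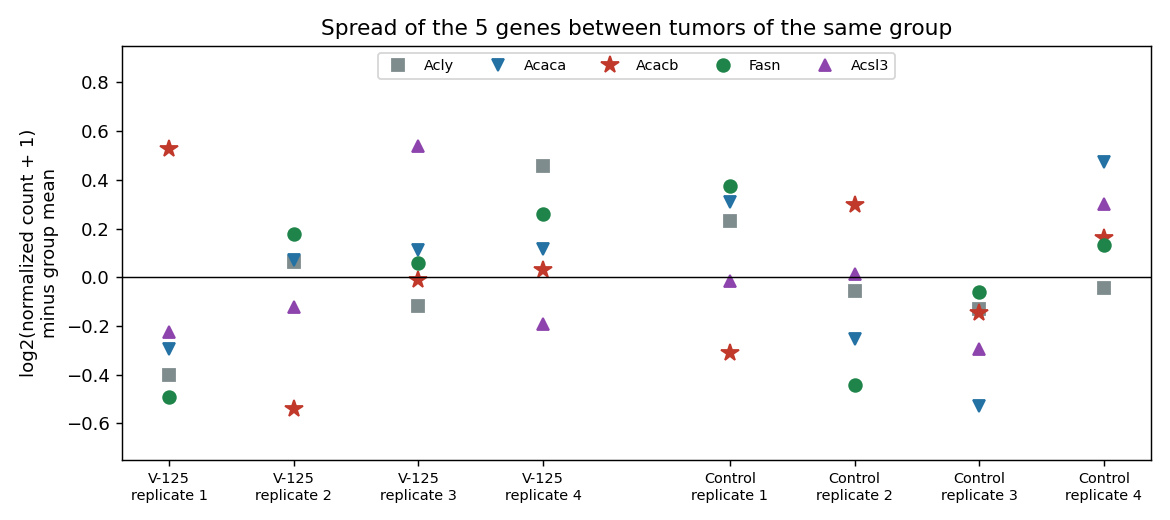
Deviation of log2(normalized count + 1) from the mean of its group for the 5 genes (symbols) in each of the 4 V-125-treated and 4 control tumors. In V-125 replicate 1 *Acacb* lies above the other 4 genes, which are all below their group mean, and in control replicates 1 and 2 *Acacb* and *Fasn* lie on opposite sides of 0.

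Bexarotene was given at the same dose and for the same time, but only the authors' group means were used, so its values carry no error and no test. *Acsl3* had a mean of 1004 normalized counts with bexarotene and 435 in controls, a ratio of 2.31, beside 2.51 with V-125. *Fasn* had a mean of 14129 with bexarotene and 8773 in controls, a ratio of 1.61, beside 2.11 with V-125. The bexarotene mean of *Acsl3* was above 3 of the 4 V-125-treated tumors, that of *Fasn* was above 1 of 4, and both were above all 4 control tumors. The control tumors are the same in both tables, whose control means differed by a factor of 1.0034 to 1.0079, and a direct difference between V-125 and bexarotene could not be tested from means. Of all genes listed for bexarotene 43.3% had a higher mean than in controls, and 9.36% of the 18687 genes tested were listed with an adjusted p-value below 1. *Acly*, *Acaca* and *Acacb* were not listed at the authors' unadjusted p-value of 0.05, so no bexarotene value of theirs was analysed here, which does not show that they were at control level.

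The steps around these enzymes were followed through lists of genes, counted by listing and direction. No gene of these lists passed edgeR's adjustment over all tests (background 0%). The counts below stand beside 8.95% of all genes tested that were listed for V-125 and, among the listed genes, 51.4% with a higher mean and 21.1% higher without overlap. Of 18 genes that supply carbon and NADPH, 5 were listed for V-125, all 5 higher, with a median edgeR log2 fold change of 0.58, and 4 of 5 had an unadjusted edgeR p-value under 0.05 in that direction (background 36.7% of genes fitted, which had all been selected for listing). *Tkt*, a pentose phosphate enzyme, had 9272 ± 1836 normalized counts with V-125 and 5773 ± 1218 in controls (SD, n = 4 each) without overlap. *Acss1*, the mitochondrial acetyl-CoA synthetase, had 6321 ± 1573 against 4233 ± 903, and *G6pdx*, which opens the pentose phosphate pathway, had 2181 ± 544 against 1542 ± 403, both with overlap. *Idh1*, a cytosolic source of NADPH, also overlapped (1717 ± 156 against 1209 ± 228). For bexarotene 2 of the 18 were listed, both lower, the glucose transporter *Slc2a1* at 0.648 and the pyruvate carrier subunit *Mpc2* at 0.685 of the control mean.

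Among 16 cofactors and regulators of carboxylase and synthase, 2 were listed for V-125 and none for bexarotene. *Mid1ip1*, whose protein promotes polymerization of acetyl-CoA carboxylase, had 604, 383, 479 and 589 normalized counts in V-125-treated tumors 1 to 4 and 276, 206, 132 and 217 in control tumors 1 to 4. Its mean was higher with V-125 without overlap (514 ± 104 against 207 ± 59.0, SD, n = 4 each), with an edgeR log2 fold change of 1.31 (SE 0.26). *Mcat*, the malonyl transferase of the separate mitochondrial pathway, was lower without overlap (291 ± 8.18 against 377 ± 36.0). For the AMP-activated kinase subunits in this list no value was analysed here.

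Of 21 other acyl-CoA synthetases, thioesterases and acyl-CoA binding genes, 3 were higher and 2 lower with V-125. Their median log2 fold change was 0.38, beside 0.36 for all genes fitted, and both medians mix genes of both directions. *Slc27a4*, a transport protein with acyl-CoA synthetase activity, had 3211 ± 415 normalized counts against 2473 ± 317 with overlap. The thioesterases, which undo the activation step, differed in direction, with *Acot1* at 1428 ± 401 against 819 ± 299 and *Acot2* at 313 ± 76.2 against 194 ± 39.9, but *Acot7* at 351 ± 33.9 against 452 ± 52.6 (SD, n = 4 each, all with overlap). *Slc27a3*, of the same family as *Slc27a4* and named after its values had been seen, was the only listed gene of these 21 without overlap, and it was lower with V-125 (72.7 ± 16.7 against 141 ± 42.9, SD, n = 4 each). *Acot1* and *Acot2* are close paralogs, so their reads may be divided uncertainly. *Acot7* was the single one of the 21 listed for bexarotene, at 0.708 of the control mean. The relatives of *Acsl3* in this list (*Acsl1*, *Acsl4*, *Acsl5* and *Acsl6*) were in neither table, and no value of theirs was analysed here.

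Acyl-CoA is used for glycerolipids or oxidized. Of 15 glycerolipid genes, 3 were higher with V-125, and *Gpam*, the mitochondrial glycerol-phosphate acyltransferase, had 540, 528, 507 and 564 normalized counts in V-125-treated tumors 1 to 4 and 198, 351, 235 and 374 in control tumors 1 to 4, without overlap. *Lpin1*, a phosphatidate phosphatase, had 1078 ± 236 against 699 ± 279 with overlap, and *Gpat3* was low in both groups (25.7 ± 25.9 against 7.45 ± 2.32). With bexarotene *Gpam* was at 1.55 and *Dgat2*, which makes triglycerides, at 1.56 times the control mean. *Mogat2* was listed at a mean of 0 against 6.15 normalized counts in controls, too few to compare.

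Of 14 fatty acid oxidation genes considered, 2 were listed for V-125, both higher without overlap, beside the 8.95% of all genes tested that were listed and the 21.1% of listed genes higher without overlap. *Cpt1a*, the mitochondrial entry step that malonyl-CoA inhibits, had 1025 ± 142 normalized counts against 623 ± 223, and *Ehhadh*, which encodes a peroxisomal oxidation enzyme, had 793 ± 88.2 against 522 ± 139 (SD, n = 4 each). Both were also listed for bexarotene, at 1.59 and 1.49 times the control mean.

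Of 22 genes of transcriptional control, 2 were listed for V-125. *Insig1*, which retains SREBP in the endoplasmic reticulum and is itself an SREBP target, had 1287, 2142, 2011 and 4531 normalized counts in V-125-treated tumors 1 to 4 and 573, 517, 1000 and 928 in control tumors 1 to 4. The groups did not overlap, V-125 replicate 1 was again the lowest of its group, and the bexarotene mean was 2.64 times that of controls. *Rxrg*, an RXR gene, had 24.5 and 4.75 normalized counts in V-125 replicates 1 and 2 and 0 in all other tumors, too few to compare. For the other 20 genes of this list, among them the SREBP, LXR and PPAR genes, no V-125 value was analysed here. Of 13 desaturases and elongases, which modify fatty acids, 5 were higher with V-125 and 4 of them did not overlap (21.1% of all listed genes were higher without overlap). *Scd1* was the most abundant with 157728 ± 48269 normalized counts against 44801 ± 32813 (SD, n = 4 each). *Scd2* (22677 ± 8080 against 10568 ± 3506) and *Elovl6* (1706 ± 258 against 701 ± 357) did not overlap, and *Fads2* (1941 ± 429 against 1112 ± 681) did. For bexarotene 5 of the 13 were listed, all 5 with a higher mean than controls (43.3% of all genes listed for bexarotene), and 4 genes were listed for both agonists. *Scd1*, *Scd2* and *Scd3* are paralogs of high similarity, so the values of *Scd3* in particular are uncertain.

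**Figure D5:**
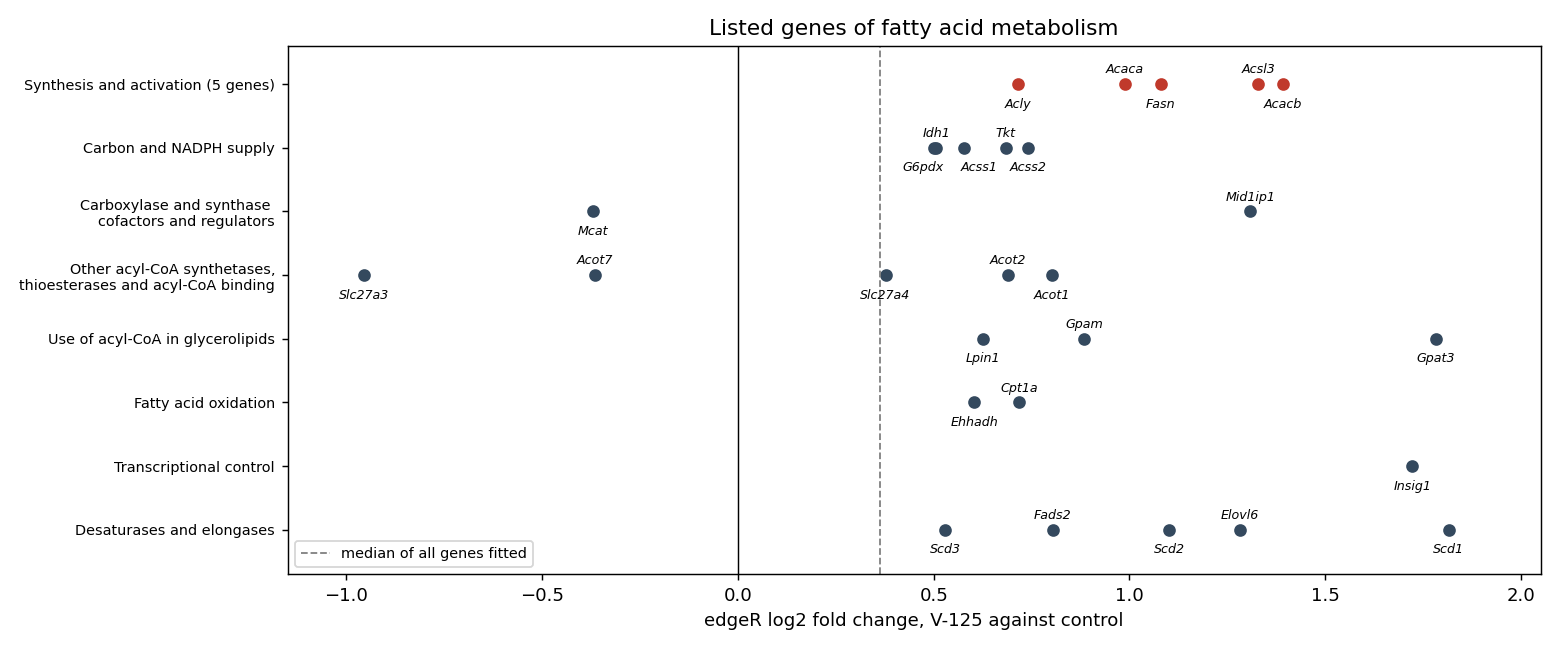
edgeR log2 fold changes of V-125 against control for the 5 genes (red) and for the listed and fitted genes considered of 7 lists of fatty acid metabolism (dark), with the median of all 1333 genes fitted (dashed line, 0.36). The 5 genes lie between 0.72 and 1.39, *Mcat*, *Acot7* and *Slc27a3* lie below 0, and only listed genes, selected for a difference, are drawn. The dashed median mixes genes higher and lower with V-125, so it is not a typical size of change.

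Other cell types of the gland express these enzymes too, so their markers were read beside the results. As background, 8.95% of genes tested with V-125 and 9.36% of those tested with bexarotene entered the lists with an adjusted p-value below 1. A mean above control was found for 51.4% of the V-125 list (21.1% without overlap) and 43.3% of the bexarotene list. The share lower without overlap was not determined. Of 12 adipocyte markers none was listed for V-125, and 2 were higher with bexarotene, *Fabp4* at 3.37 and *Plin4* at 4.64 times the control mean. The means were 530 against 157 normalized counts for *Fabp4* and only 52.4 against 11.3 for *Plin4*. Of 11 markers of secretory alveolar cells, which also make fatty acids, *Csn1s1* and *Wap* were lower with V-125, *Wap* with overlap (91.6 ± 53.3 against 443 ± 394 normalized counts, SD, n = 4 each). The milk protein gene *Csn1s1* had 144230, 231316, 11030 and 37735 normalized counts in V-125-treated tumors 1 to 4 and 503854, 284145, 248201 and 376538 in control tumors 1 to 4, without overlap, and the summed level of the listed alveolar markers was 99.98 to 2049 FPKM with V-125 and 2213 to 4536 FPKM in controls. That sum holds only *Csn1s1* and *Wap*, which had been selected for a difference, so it does not measure alveolar cells. Bexarotene had 5 of the 11 lower, at 0.132 to 0.429 of the control mean.

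Of 9 epithelial markers 3 were lower with V-125, *Epcam* without overlap (32209 ± 2776 against 42502 ± 7390 normalized counts, SD, n = 4 each) and *Cdh1* (5697 ± 845 against 7523 ± 1564) and *Trp63* (15.5 ± 13.5 against 71.8 ± 32.6) with overlap, and their summed level was 841 to 1018 FPKM against 1098 to 1572 FPKM. *Epcam* and *Cdh1*, which define epithelium, had at least 28485 and 4565 normalized counts in each of the 8 tumors. Of 5 endothelial markers *Kdr* was higher without overlap (735 ± 134 against 408 ± 108). Of 11 leukocyte markers *Cd2* was higher, with V-125 replicate 1 at 195 and the others at 3.17 to 23.8, and *Itgam* lower (42.1 ± 14.1 against 76.6 ± 9.85), with a summed level of 0.439 to 6.63 FPKM with V-125 and 0.836 to 1.02 FPKM in controls. With bexarotene the epithelial *Krt8* and *Krt18* were at 0.723 and 0.680 and the leukocyte markers *Csf1r*, *Itgam* and *Cd68* at 0.563, 0.435 and 0.633 of the control mean. Of 6 fibroblast markers none was listed. Beside these counts stand 51.4% of the V-125 list (21.1% without overlap) and 43.3% of the bexarotene list with a higher mean. No background share was determined for genes lower without overlap, such as *Epcam* and *Itgam*. The summed levels hold only the listed markers, which had been selected for a difference, so they do not measure the cell types. The part of these markers' cell types in the levels of the 5 genes was not tested.

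The listed genes whose pattern was most like the mean standardized log2 level of the 5 genes over the 8 tumors were *Slc5a3*, which encodes an inositol transporter (Pearson r = 0.96), *Mia3*, which encodes a protein of secretory cargo export from the endoplasmic reticulum (0.95), *Arhgef37* (0.95), *Tmem63b*, which encodes an ion channel (0.95), and *Man1b1*, which encodes a mannosidase of glycoprotein quality control (0.95). These were taken from 1139 listed genes with a mean normalized count of at least 50, of which 26 reached an r of 0.9. All listed genes differ between the groups, which by itself raises such an r. From the deviations within groups alone r was 0.89 for *Slc5a3*, 0.70 for *Arhgef37* and 0.35 to 0.40 for the other 3. Of these, *Slc5a3* had 3697, 5206, 5311 and 5185 normalized counts in V-125-treated tumors 1 to 4 and 2924, 2320, 2379 and 3405 in control tumors 1 to 4, with V-125 replicate 1 the lowest of its group, as for 4 of the 5 genes.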

How the data were processed

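Total RNA from 12 tumors was sequenced after polyA enrichment, and the submitters' processing notes name STAR 2.6.1d, featureCounts 1.5.0-p3 and limma. The genome build is not given in the sources used here; of 1589 gene identifiers 1583 are in GENCODE M21 (GRCm38), 1526 with the same coordinates, the 5 genes included. For V-125 the authors deposited the read count of each listed gene per tumor, the normalized count (a signal, the count after division by the size factor of its tumor) and FPKM (scaled to gene length and to the reads on genes of that tumor). For bexarotene only the authors' deposited means of this signal entered. Both tables also hold the authors' log2 fold changes, p-values and adjusted p-values. The deposited p-value columns were read only to find that all listed genes have p under 0.05 and that 15310 and 18687 genes had been tested. The adjusted p-value was exactly 1 for 218 and 34 genes, which were not counted among the tests.

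Counts of the listed genes that passed filterByExpr (1333) were fitted with edgeR 4.0.16 (quasi-likelihood, R 4.3.3), scaled by the deposited size factors, and SE was taken as the fold change over the square root of F. Benjamini-Hochberg adjustment was over 15310 tests. limma-voom (3.58.1), DESeq2 (1.42.0), other scalings, no filter, a replicate block and fits without 1 tumor were alternatives. The fits were also run on simulated counts, with 4-fold changes in 166 of 1362 genes fitted and the rest unchanged. There edgeR recovered 146 of the 166 over the genes fitted and 118 over all tests. These changes were larger than those of the 5 genes, so the simulation does not show how well smaller differences among selected genes are found. Single genes were compared by exact permutation tests in Python 3.11.15 with scipy 1.17.1, numpy 2.4.6 and pandas 2.3.3. The 5 genes and all lists were chosen with earlier results of these data known. Besides the 5 genes, up to 4 listed genes of each list, those with the highest mean FPKM, and the 5 genes of most similar pattern (mean normalized count of at least 50) are given with values. Same-numbered V-125-treated and control tumors are different mice, and nothing in the labels pairs them. Results for some genes of the lists are not reported here. The p-values of the fits set the difference between groups against a modelled spread between tumors, and the permutation p-values count assignments of tumors to groups. With 15571690 to 22574865 reads per tumor, the lowest count of the 5 genes was 213, so counting error is small beside the spread between tumors.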

Additional observations from a re-analysis of the deposited data

Results flagged for a closer look

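Among 39 genes, the 5 genes and those picked by the rule for named genes, each checked in both groups of 4 tumors (78 groups), 9 groups held a tumor whose gap to the nearest other tumor exceeded Dixon's critical share of the range for 4 samples. Chance gives about 1 in 20 groups.

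Of the 5 synthesis and activation genes, *Acaca* was low in V-125 replicate 1 (2757 normalized counts, others 3551 to 3660) and *Acsl3* was high in V-125 replicate 3 (1559, others 919.7 to 986). Leaving out these tumors gave edgeR log2 fold changes of 1.08 for *Acaca* and 1.11 for *Acsl3*.

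*Slc5a3* was also low in V-125 replicate 1 (3697, others 5185 to 5311), and *Cd2* was high in the same tumor (195, others 3.17 to 23.8). In control replicate 1 *Epcam* (53468, others 37941 to 40361) and *Mia3* (1812, others 1646 to 1657) were high. *G6pdx* was high in control replicate 3 (2140, others 1261 to 1391). In control replicate 4 *Elovl6* was high (1235, others 503 to 541) and *Acot7* low (374, others 471 to 487). No cause was tested for any of these values.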

How the results depend on the processing

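All 70 fits of the 5 genes under 14 other settings gave log2 fold changes above 0. Leaving out a tumor cannot reverse the difference of means where groups do not overlap, so those fits do not test the direction. The number of genes called by edgeR over all tests was 0. It became 4 with adjustment over the genes fitted (background 5.10%), which is too lenient for genes selected for their difference. Over all tests it became 4 with DESeq2 (background 5.33%), and stayed 0 with limma-voom, library totals, TMM on the listed genes and no filter on low counts. With the adjustment over the genes fitted it was 5 with limma-voom (background 6.68%). With the replicate block 0 were called under either adjustment, while all 5 kept an unadjusted edgeR p-value under 0.05, with log2 fold changes from 0.69 (*Acly*) to 1.36 (*Acacb*). Of the 1333 genes in that fit, 17 passed as higher over the genes fitted, 0 over all tests and 399 before adjustment. Same-numbered tumors had correlations of their deviations from group means of −0.175 to 0.089, so the number is not taken as a pairing. With each tumor left out, 0 were called over all tests, and 0 to 5 over the genes fitted, with 0 without V-125 replicate 2, V-125 replicate 4, control replicate 2 or control replicate 4 and 5 without V-125 replicate 1. Among all genes, 0, 0, 0 and 1 passed as higher over the genes fitted in the fits that called 0. Without V-125 replicate 1 it was 64 of 1362. The log2 fold changes then ranged from 0.54 to 0.84 for *Acly*, 0.84 to 1.16 for *Acaca*, 1.19 to 1.55 for *Acacb*, 0.95 to 1.22 for *Fasn* and 1.11 to 1.44 for *Acsl3*. All 5 genes were without overlap also with FPKM and with library totals. Groups without overlap stay so when a tumor is left out, so leaving out tumors was no further check of this. With the control mean of the V-125 table the bexarotene ratios were 2.29 for *Acsl3* and 1.60 for *Fasn*. The cause of the changed calls between tools was not tested. The effect of read depth was not tested, and *Rxrg* had too few reads to compare.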
